A study of Mus musculus with 6 samples.

Results

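A set of 6 protein-coding genes of mouse chromosome 4 that lie near Galt are described here: Il11ra1, Dctn3, Rpp25l, Cntfr, Invs and Tmeff1. Galt encodes galactose-1-phosphate uridylyltransferase, the Leloir pathway enzyme whose loss causes classic galactosemia. The 6 symbols were listed for their position, and part of them because they had changed between the genotypes in these libraries, so their own genotype differences are given as a description without a test. All 6 passed the filter on low counts, among 16957 of 55487 genes in the table that did so. RNA came from whole ovaries at postnatal day 49, from 3 wildtype and 3 GalTKO (genotype GalT-/-) samples. Mice of both genotypes shared the strain label cbl/6-ola/129 and were fed galactose at 2.5% for 4 weeks. The labels used here do not say how the Galt allele was made, whether a sample is 1 animal, or which litter or estrous stage it had. A p-value here therefore speaks of the spread among these libraries, which may be technical.

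Genes that sit close to an engineered locus are inherited together with it. In mice of mixed strain background, 2 genotypes can therefore differ in the alleles of neighbouring genes as well as in the engineered gene, and gene counts carry no allele information. In this design the alleles carried around Galt and the loss of Galt itself cannot be told apart. The neighbours have varied roles. Il11ra1 and Cntfr encode the ligand-binding alpha chains for interleukin 11 and for ciliary neurotrophic factor, and both signal through the shared chain gp130, encoded by Il6st. Dctn3 encodes a small subunit of dynactin, the complex that couples cargo to the dynein motor. Rpp25l encodes a relative of RPP25, a protein of the RNA-processing enzymes RNase P and RNase MRP. Invs encodes inversin, a protein of the primary cilium with a part in left-right patterning and kidney development. Tmeff1 encodes a membrane protein with follistatin-like domains and an EGF-like domain.

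In GENCODE M21 on GRCm38, Galt spans 41755228 to 41758695 on the plus strand of chromosome 4. It lies inside the annotated body of Il11ra1, which runs from 41699989 to 41769474 on the same strand. Of 10 annotated Il11ra1 transcripts, 1 starts 55239 bp before Galt and the other 9 start after it, the first of them 1501 bp beyond the end of Galt. No exon base is shared between Galt and Il11ra1. Rpp25l (41712033 to 41713534) and Dctn3 (41714798 to 41723170) are also inside the Il11ra1 body, on the minus strand and without a shared exon base. Cntfr (41657498 to 41697089, minus strand) lies just before the Il11ra1 body. Invs (48279760 to 48431954) and Tmeff1 (48585174 to 48663131), both on the plus strand, lie 6.52 and 6.83 Mb away and 153219 bp from each other. Invs shares 226 of 11431 exon bases (1.98%) with Tex10 on the opposite strand.

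**Figure D1:**
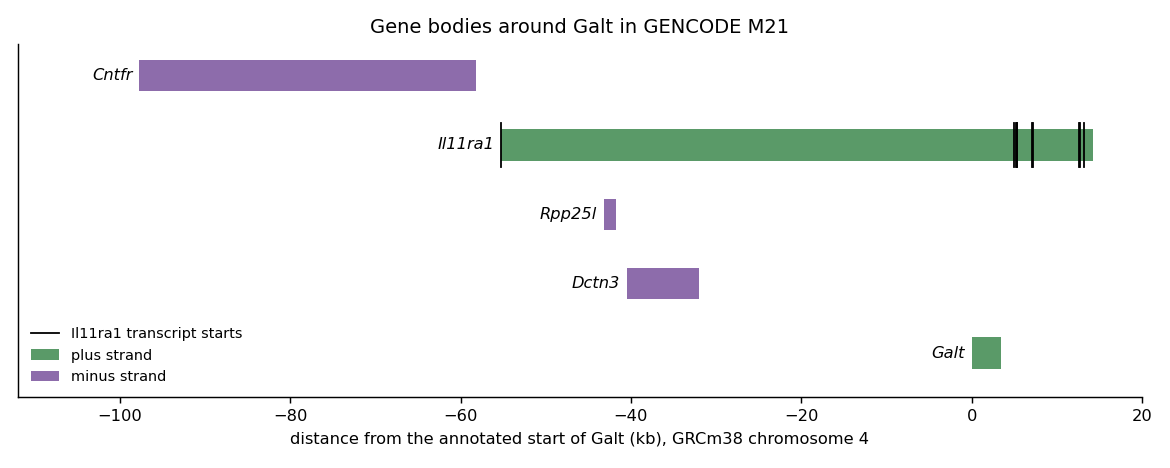
Gene bodies around Galt, drawn to scale as distance in kb from the annotated start of Galt, with green for the plus and violet for the minus strand and black ticks for the annotated starts of Il11ra1 transcripts. Galt, Dctn3 and Rpp25l lie within the body of Il11ra1, and 9 of its 10 transcripts start to the right of Galt.

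The promoters of Galt, of the 3 neighbours whose genotypes did not overlap (Il11ra1, Invs and Tmeff1) and of Dctn3, an adjoining gene whose genotypes did, are shown to compare their starts. Each window holds 250 bases before and 50 after a RefSeq transcript start on GRCm38.p6, 5′ to 3′ on the gene's strand, and capitals mark matches to the motifs searched. For Galt and Il11ra1, which have more than 1 window in the table, the most upstream is shown. Their RefSeq starts, 41755517 and 41760443, lie downstream of the first GENCODE starts given above, 41755228 and 41699989. The Galt window therefore lies within the annotated body of Galt.
Galt, chr4:41755267-41755566, plus strand: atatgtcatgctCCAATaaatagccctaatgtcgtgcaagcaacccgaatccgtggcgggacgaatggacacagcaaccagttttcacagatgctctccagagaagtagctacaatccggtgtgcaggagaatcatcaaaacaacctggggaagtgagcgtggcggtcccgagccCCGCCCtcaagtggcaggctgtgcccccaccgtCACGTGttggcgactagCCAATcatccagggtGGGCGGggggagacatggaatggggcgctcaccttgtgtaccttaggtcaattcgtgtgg
Il11ra1, chr4:41760193-41760492, plus strand: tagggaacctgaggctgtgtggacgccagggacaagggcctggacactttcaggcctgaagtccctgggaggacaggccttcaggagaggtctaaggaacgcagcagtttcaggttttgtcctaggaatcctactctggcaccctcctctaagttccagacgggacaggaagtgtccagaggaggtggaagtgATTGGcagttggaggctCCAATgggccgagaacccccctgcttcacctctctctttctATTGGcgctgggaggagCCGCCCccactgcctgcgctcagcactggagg
Dctn3, chr4:41723114-41723413, minus strand: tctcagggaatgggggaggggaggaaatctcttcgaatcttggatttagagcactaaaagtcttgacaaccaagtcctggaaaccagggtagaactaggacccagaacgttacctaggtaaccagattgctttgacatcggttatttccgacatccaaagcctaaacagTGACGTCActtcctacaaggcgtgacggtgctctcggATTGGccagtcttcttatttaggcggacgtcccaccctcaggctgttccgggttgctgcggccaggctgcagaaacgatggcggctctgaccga
Invs, chr4:48279510-48279809, plus strand: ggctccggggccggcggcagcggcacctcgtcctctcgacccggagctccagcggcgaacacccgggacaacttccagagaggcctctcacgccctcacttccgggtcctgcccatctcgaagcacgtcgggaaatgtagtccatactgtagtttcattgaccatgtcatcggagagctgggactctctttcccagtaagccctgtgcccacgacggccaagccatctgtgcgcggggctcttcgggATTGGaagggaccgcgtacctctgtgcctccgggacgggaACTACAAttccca
Tmeff1, chr4:48584924-48585223, plus strand: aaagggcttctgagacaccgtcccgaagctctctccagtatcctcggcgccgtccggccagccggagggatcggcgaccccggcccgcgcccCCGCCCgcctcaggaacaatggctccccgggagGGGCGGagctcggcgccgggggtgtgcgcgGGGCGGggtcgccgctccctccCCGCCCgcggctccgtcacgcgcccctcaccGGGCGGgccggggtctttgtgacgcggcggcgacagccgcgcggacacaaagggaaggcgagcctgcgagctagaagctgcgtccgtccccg

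The motifs were searched on both strands, and none of the marked matches overlaps another. The CCAAT box (CCAAT) is found in 37.4% of the 32851 promoters of the table, the GC box (GGGCGG) in 35.7%, the TATA box (TATAAA) in 13.6%, the E-box (CACGTG) in 7.15%, the ZNF143 core (ACTACAA) in 3.24% and the cAMP response element (TGACGTCA) in 1.79%. Tmeff1 holds 5 GC boxes and no CCAAT box. Il11ra1 holds 3 CCAAT boxes and 1 GC box, and Invs 1 CCAAT box and 1 ZNF143 core. In Galt there are 2 CCAAT boxes, 2 GC boxes and 1 E-box, and in Dctn3 1 cAMP response element and 1 CCAAT box. The 300 bases of Tmeff1 are 76.0% G or C with 45 CpG pairs, those of Invs 63.0% with 25, those of Il11ra1 59.3% with 7, and the medians over the table are 52.7% and 7. Invs and Tmeff1, which were both higher in GalTKO ovaries, share none of the motifs searched in these windows. These matches describe letters only.

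Libraries held 19232486 to 25729564 counts, and all 12 ovary markers looked for, among them Foxl2, Amh, Zp3 and Star, were measured in them. The markers' summed level was 10595.7 to 14434.2 CPM (counts scaled to library size, with TMM) in wildtype and 7274.2 to 9580.5 CPM in GalTKO. Cyp11a1, Star and Lhcgr carried most of this drop, and the groups of Lhcgr overlapped. Their wildtype means were 5516.7, 1613.8 and 1381.7 CPM, against 3414.7, 737.3 and 518.5 CPM in GalTKO libraries. The list median of the log2 fold change was -0.1, with 5 of 12 at an unadjusted p under 0.05 and 3 called by DESeq2. Beside the counts of this and the next lists, 17.1% of all tested genes had an unadjusted edgeR p under 0.05. At an adjusted p under 0.05 edgeR called 1.13% of them higher and 1.43% lower, and DESeq2 called 5.44% of its genes. By edgeR Star, which encodes the cholesterol carrier of steroid synthesis, was lower (log2 fold change -1.13 ± 0.19 (SE), adjusted p 0.0263) and Amh, a granulosa cell hormone gene, was higher (0.76 ± 0.12, adjusted p 0.0214). These 2 calls became 0 without wildtype replicate 1, wildtype replicate 2 or GalTKO replicate 1, 1 without wildtype replicate 3 and 3 without GalTKO replicate 2. Macrophage markers moved as well: the summed level of 12 genes was 489.1 to 587.4 CPM in wildtype and 313.6 to 348.0 CPM in GalTKO libraries, with 6 of the 12 lower by edgeR and 0 higher. All 12 had an unadjusted p under 0.05, and DESeq2 called 9. The edgeR count of 6 became 2 without wildtype replicate 1, wildtype replicate 2 or GalTKO replicate 1, and 3 without GalTKO replicate 3. The summed level of 8 fat markers, of which 3 were tested, was 23.7 to 25.8 CPM in wildtype and 40.9 to 58.1 CPM in GalTKO libraries. Plin1 carried most of it and was the only fat marker past the threshold. The other tested fat markers, Car3 and Fabp4, did not rise, with log2 fold changes of -0.26 ± 0.66 and -0.079 ± 0.32 (SE) and overlapping groups. Adipoq stayed at or below 0.0423 CPM and Lep was at 0 in every library. Of 12 oviduct markers 6 were tested and none passed by edgeR, at an unadjusted p under 0.05 or by DESeq2, with Sntn at 0 in every library, and their summed level was 22.0 to 39.8 CPM in wildtype and 20.2 to 24.7 CPM in GalTKO libraries. Ovgp1, the oviduct glycoprotein gene, stood at 20.3 CPM in wildtype replicate 2 and at 0.8 CPM or less in the other 5 libraries. Of 6 erythroid markers 2 were tested and 0 passed by edgeR (1 at an unadjusted p under 0.05), and of 7 Leloir pathway genes 0 passed (2 at an unadjusted p under 0.05). DESeq2 called 1 gene of each list. The part of these tissues in the differences below was not tested, and in whole ovaries fewer cells of a type and less RNA per cell cannot be told apart.

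Galt was nearly absent from GalTKO ovaries. It stood at 17.8, 16.1 and 17.4 CPM in wildtype replicates 1 to 3 and at 0.155, 0.259 and 0 CPM in GalTKO replicates 1 to 3. A count of 0, as in GalTKO replicate 3, allows up to 0.156 CPM (3 counts, counting error only). In all, 1227 Galt reads were counted over the wildtype and 10 over the GalTKO libraries.

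Of the 6 neighbours, Il11ra1 was lower and Invs and Tmeff1 were higher in GalTKO ovaries, while Dctn3, Rpp25l and Cntfr had overlapping groups. The first 3 were the members past an adjusted p of 0.05, where 2.55% of all tested genes were (1.13% higher and 1.43% lower), and groups did not overlap for the same 3, where this held for 23.7% of tested genes. Because the choice of members drew on this contrast, nothing is read from those counts, nor from the 3 calls by DESeq2, with no filter on low counts and by limma voom, where 5.44%, 2.83% and 3.29% of all genes were called.

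Il11ra1 (ENSMUSG00000073889), the interleukin 11 receptor chain, stood at 32.1, 31.8 and 29.1 CPM in wildtype replicates 1 to 3 and at 20.7, 22.5 and 21.6 CPM in GalTKO replicates 1 to 3. Every wildtype library was above every GalTKO library, and wildtype replicate 3 was the lowest of its group. The means were 31.0 ± 1.66 and 21.6 ± 0.925 CPM (SD, n = 3), a log2 fold change of -0.52 ± 0.095 (SE) or a fold of 0.696. The counts behind it summed to 2228 in wildtype and 1471 in GalTKO libraries. In fits with a library left out the value ran from -0.57 to -0.49, and in 5 of the 6, all but the one without GalTKO replicate 2, it was not past the threshold.

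Reads of Il11ra1 can match a near-identical copy, which bears on its counts. Il11ra2, annotated at 42656355 to 42661893 on the minus strand of chromosome 4 and on 2 further scaffolds, differs from Il11ra1 at 13 of 1296 coding bases (99.0% identity), and the longest run without a difference is 356 bases. The 60 coding bases with most differences, 1030 to 1089 counted from the first base of the start codon, show how few separate the genes. Capitals mark the bases that differ.
Il11ra1: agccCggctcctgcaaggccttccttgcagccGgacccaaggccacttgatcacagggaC
Il11ra2: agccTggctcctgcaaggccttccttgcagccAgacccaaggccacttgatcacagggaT

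The 3 Il11ra2 entries held 5 counts in wildtype and 0 in GalTKO libraries. With their counts added to those of Il11ra1, the log2 fold change was -0.53. The sources used here do not state how reads that match several places were counted, and reads lost from Il11ra1 in this way are not seen in its counts. Relatives of other members are less alike: Rpp25 was 55.1% identical to Rpp25l and Tmeff2 61.5% identical to Tmeff1 over the longer coding sequence.

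Cntfr (ENSMUSG00000028444), the ciliary neurotrophic factor receptor chain, had the fewest reads of the 6. Its levels were 6.28, 4.31 and 5.76 CPM in wildtype and 4.45, 5.31 and 5.36 CPM in GalTKO replicates 1 to 3. A wildtype library was the lowest, and the groups overlapped. The log2 fold change was -0.12 ± 0.20 (SE), and -0.26 without wildtype replicate 2 against -0.0018 without wildtype replicate 1.

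Dctn3 (ENSMUSG00000028447), the dynactin subunit, stood at 37.2, 41.1 and 47.4 CPM in wildtype and at 39.4, 39.6 and 42.8 CPM in GalTKO replicates 1 to 3. All 3 GalTKO libraries fell within the wildtype range. The log2 fold change was -0.045 ± 0.11 (SE), and 0.051 without wildtype replicate 3, the highest library.

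Rpp25l (ENSMUSG00000036114) had 12.4, 10.4 and 10.1 CPM in wildtype and 11, 9.15 and 9.01 CPM in GalTKO replicates 1 to 3. Replicate 1 was the highest library of both groups, and GalTKO replicate 1 was above wildtype replicates 2 and 3. The log2 fold change was -0.17 ± 0.15 (SE).

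Invs (ENSMUSG00000028344), the inversin gene, stood at 35.3, 37.5 and 33.4 CPM in wildtype and at 49.7, 47.1 and 46.6 CPM in GalTKO replicates 1 to 3. All GalTKO libraries were above all wildtype libraries. The means were 35.4 ± 2.04 and 47.8 ± 1.69 CPM (SD, n = 3), and the log2 fold change was 0.43 ± 0.087 (SE), a fold of 1.35. Over fits with a library left out it ran from 0.39 to 0.47, and it was not past the threshold in 5 of the 6, all but the one without GalTKO replicate 2.

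Tmeff1 (ENSMUSG00000028347) had the largest rise of the 6. Its levels were 12.8, 15.5 and 13.9 CPM in wildtype and 22.9, 24.5 and 28.4 CPM in GalTKO replicates 1 to 3. Both groups were well apart, with GalTKO replicate 3 the highest. The means were 14.1 ± 1.39 and 25.3 ± 2.82 CPM (SD, n = 3), and the log2 fold change was 0.84 ± 0.13 (SE), a fold of 1.80. With a library left out it ran from 0.75 to 0.91, and it was not past the threshold without wildtype replicate 1 or 3.

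**Figure D2:**
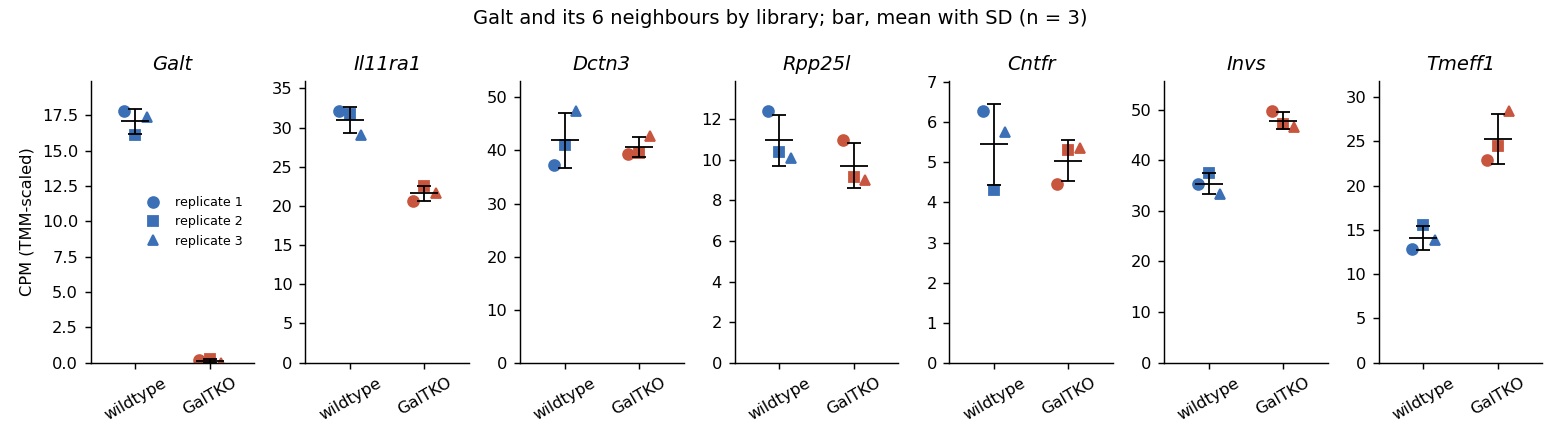
TMM-scaled CPM of Galt and the 6 neighbours in each library (circle, square and triangle for replicates 1, 2 and 3), with the mean and SD of each genotype (n = 3) in black and all vertical axes starting at 0. Galt and Il11ra1 are lower and Invs and Tmeff1 higher in every GalTKO library, while the groups of Dctn3, Rpp25l and Cntfr overlap.

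**Figure D3:**
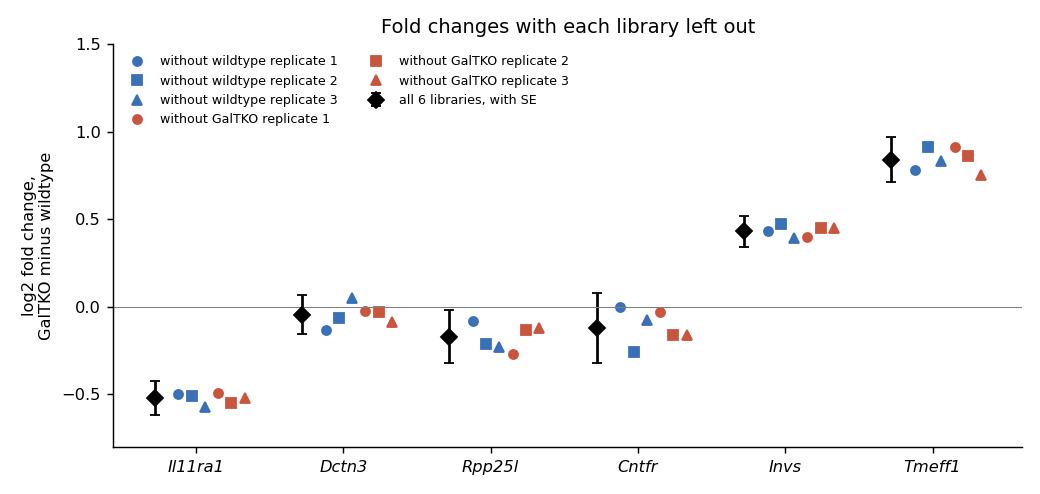
Log2 fold change (GalTKO minus wildtype) of the 6 neighbours with all libraries (black diamond, SE) and with each library left out in turn (blue for a wildtype, red for a GalTKO library). Il11ra1 stays between -0.57 and -0.49, Invs between 0.39 and 0.47 and Tmeff1 between 0.75 and 0.91, while Dctn3 crosses 0 without wildtype replicate 3.

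Per length of exon, Dctn3 was the most abundant of the 6 in wildtype ovaries, at 40.2 ± 4.92 CPM per kb (SD, n = 3). Rpp25l followed at 12.8 ± 1.42, Il11ra1 at 6.94 ± 0.372, Tmeff1 at 5.52 ± 0.545, Invs at 3.09 ± 0.178 and Cntfr at 1.96 ± 0.366 CPM per kb. The libraries of neighbours in that order did not overlap in wildtype. In GalTKO ovaries Tmeff1, at 9.91 ± 1.11 CPM per kb, stood above Il11ra1, at 4.83 ± 0.207, and its range of 8.97 to 11.1 overlapped that of Rpp25l, 10.5 to 12.8. Invs reached 4.18 ± 0.148 CPM per kb there, just under the Il11ra1 range of 4.62 to 5.04. Exon length is the union over all annotated transcripts, which lowers the level of a gene such as Invs whose union is 11431 bp.

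The other genes within 1 Mb of Galt, chosen by position alone, were then compared with these. Of 20 tested neighbours besides Galt and the members, 0 passed an adjusted p of 0.05 by edgeR and 2 had an unadjusted p under 0.05, as 17.1% of all tested genes did. DESeq2 called 1 and limma voom 0. Nfx1, which encodes a transcription factor, stood at 94.9, 99.3 and 91.9 CPM in wildtype and at 105.6, 137.3 and 106.6 CPM in GalTKO replicates 1 to 3, a log2 fold change of 0.29 ± 0.11 (SE, edgeR adjusted p 0.246). Their groups did not overlap for 3 of 20 (15%), against 23.7% of tested genes. The median size of the log2 fold change was 0.114, against 0.174 over all tested genes.

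In 4 genes between 41465151 and 41638158, on the centromeric side of Galt, wildtype replicate 3 stood apart from the other 2 wildtype libraries. These genes were picked after their values were seen. Nudt2, which encodes an enzyme that splits diadenosine tetraphosphate, stood at 3.64 and 3.89 CPM in wildtype replicates 1 and 2 but at 10.2 CPM in replicate 3, against 7.35, 9.92 and 9.01 CPM in GalTKO replicates 1 to 3. AI464131 stood at 4.56, 5.12 and 11.4 CPM in wildtype and at 8.67, 15 and 8.80 CPM in GalTKO replicates 1 to 3. Fam219a stood at 8.08, 7.74 and 16.4 CPM in wildtype and at 13.2, 12.6 and 12.5 CPM in GalTKO replicates 1 to 3. In each of the 3 genes wildtype replicate 3 was at or above the lowest GalTKO library, and the other 2 wildtype libraries were below every GalTKO library.

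Dnaic1, an axonemal dynein gene of motile cilia that adjoins Fam219a, went the other way. It had 52 and 61 counts in wildtype replicates 1 and 2, 8 in wildtype replicate 3 and 2, 0 and 1 in GalTKO replicates 1 to 3. Too few libraries reached the minimum count for it to be tested with all libraries by edgeR. The wildtype to GalTKO ratio of its scaled counts, 121 against 3, was 38.4 (95% exact binomial interval 12.8 to 188.6, counting error only), and DESeq2 gave an adjusted p of 0.000113. Foxj1, the regulator of motile cilia, had 1, 5 and 3 counts in wildtype and 4, 4 and 7 in GalTKO replicates 1 to 3. It was not lower in GalTKO, and its counts were too few to show whether wildtype replicate 3 stood apart. Among the oviduct markers, Cfap126 had 70, 70 and 64 counts in wildtype and 48, 32 and 53 in GalTKO replicates 1 to 3. Rsph1 had 30, 47 and 54 counts in wildtype and 51, 70 and 104 in GalTKO replicates 1 to 3. Neither showed the pattern of Dnaic1. Kif24 and Enho, which border the stretch from Nudt2 to Dnaic1, did not set wildtype replicate 3 apart. Kif24 had 9.80, 8.92 and 8.84 CPM and Enho 2.36, 2.50 and 2.56 CPM in wildtype replicates 1 to 3.

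With all libraries the log2 fold changes were 0.57 ± 0.40 for Nudt2, 0.63 ± 0.39 for AI464131 and 0.25 ± 0.28 for Fam219a (SE; edgeR adjusted p 0.534, 0.479 and 0.703). Without wildtype replicate 3 they were 1.22, 1.2 and 0.69, a rise that the choice of these genes fixes and that is no test. Over all alternatives their adjusted p ran from 0.0506 to 0.803, from 0.157 to 0.752 and from 0.0946 to 0.957. With no filter on low counts the edgeR adjusted p of Dnaic1 was 0.0188, and in filtered fits without GalTKO replicate 1, 2 or 3 it was 0.131, 0.0738 and 0.127. A gap of at least 1 on the log2(CPM + 0.1) scale between wildtype replicate 3 and both others was found for 83 of 12663 genes with a mean of at least 3 CPM (0.655%) and for 3 of 20 such genes within 1 Mb of Galt. This count restates the pattern that drew attention to the genes. Wildtype replicates 1 and 2 stood apart in the same way at 27 and 11 genes, and GalTKO replicates 1, 2 and 3 at 115, 263 and 77, more than wildtype replicate 3 for the first 2 of these. Within 1 Mb these 5 libraries did so at Galt in GalTKO replicate 3 and at no other gene of the 20. None of the 6 described neighbours showed it: without wildtype replicate 3, Il11ra1 stood at -0.57, Invs at 0.39 and Tmeff1 at 0.83.

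**Figure D4:**
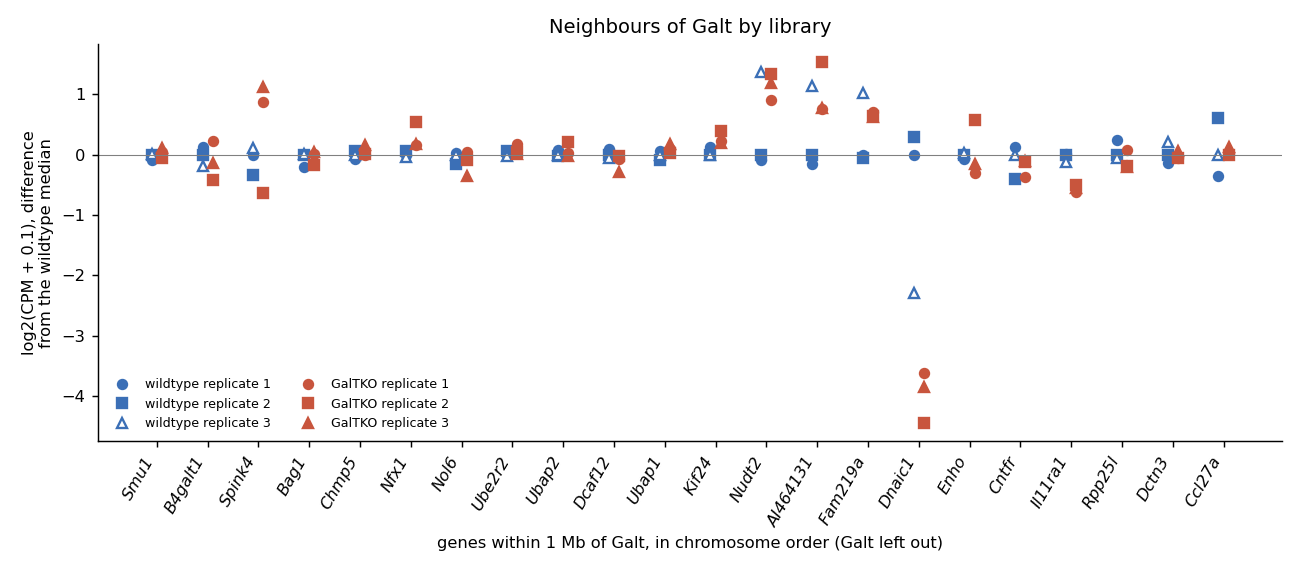
Each library's log2(CPM + 0.1) minus the wildtype median for tested, named genes within 1 Mb of Galt, plus Dnaic1, in chromosome order (blue wildtype, red GalTKO, open triangles wildtype replicate 3). Wildtype replicate 3 leaves the other wildtype libraries at Nudt2, AI464131, Fam219a and Dnaic1, and all 3 GalTKO libraries lie below the wildtype libraries at Il11ra1. Genes not reported here are not drawn.

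A wider window was then counted. Within 20 Mb of Galt 7 of 195 tested genes passed (3.59%, against 2.55% of all tested genes), 3 higher and 4 lower. Apart from the members they were 4 of 189, and none of those lay within 5 Mb, where 90 were tested and 12 had an unadjusted p under 0.05. The share was 5.05% over the rest of chromosome 4 (41 of 812) and 2.41% over the other chromosomes (384 of 15949).

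Among the 4 were the processed pseudogenes Gm11942 and Gm12751. Gm11942 had 5.24, 5.33 and 6.11 CPM in wildtype and 0.426, 0.388 and 0.364 CPM in GalTKO replicates 1 to 3. Gm12751 went the other way, with 0.16, 0.169 and 0.0866 CPM in wildtype and 6.77, 8.11 and 12.1 CPM in GalTKO replicates 1 to 3. Both values are uncertain, since processed pseudogenes share sequence with their parent genes.

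**Figure D5:**
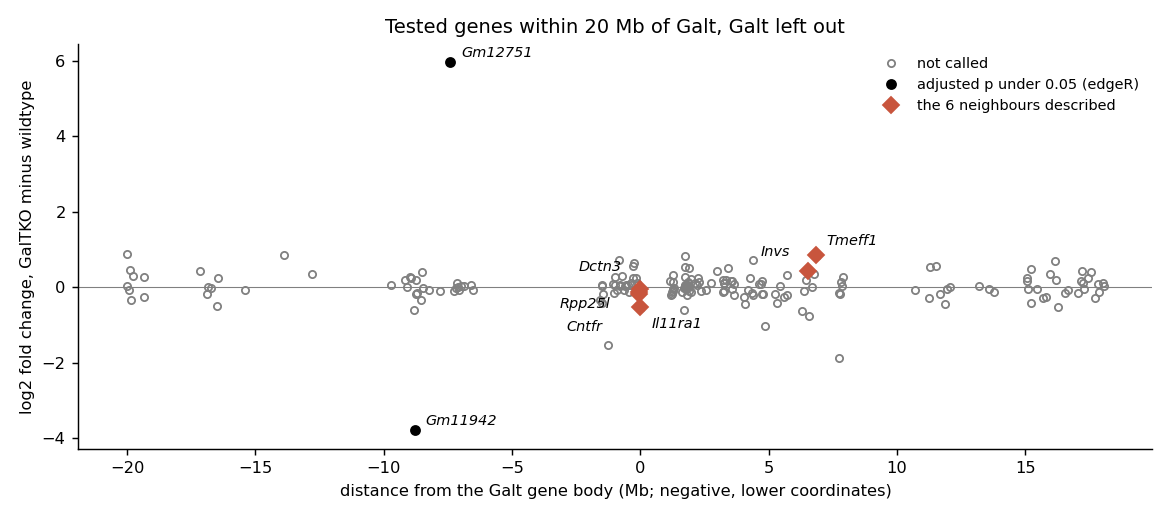
Log2 fold change (GalTKO minus wildtype) of tested genes within 20 Mb against distance from the Galt gene body in Mb, with filled points for an adjusted p under 0.05 and red diamonds for the 6 neighbours described. Invs and Tmeff1 sit together at 6.52 and 6.83 Mb, and the 4 members at Galt lie between -0.52 and -0.045. Genes not reported here are not drawn.

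The molecular partners of the members were compared as lists, by counts alone. In the 7 lists of partners, 0 of 91 tested genes passed by edgeR, 13 had an unadjusted p under 0.05 (17.1% of all tested genes did) and DESeq2 called 3, among them Rpgrip1l and Tmeff2, where DESeq2 called 5.44% of all genes with an adjusted p. In the list of IL-6 family receptors, which holds the shared chains and receptors for other ligands of the family, 0 of 8 passed, with 0 at an unadjusted p under 0.05 and a list median of -0.022, against 0.0204 over all tested genes. The mean level of Il6st was 394.7 CPM in wildtype against 394.8 CPM in GalTKO ovaries, and that of Lifr 162.1 against 157.3 CPM. The ligands were scarce. Of 8, 4 were tested and none passed by edgeR, at an unadjusted p under 0.05 or by DESeq2, with Il11 itself at 0.0985 and 0.224 CPM and Cntf at 0.683 and 0.614 CPM. In the downstream JAK-STAT3 list 0 of 13 passed by edgeR, 2 at an unadjusted p under 0.05, and DESeq2 called 1, with Stat3 at a log2 fold change of -0.24 ± 0.10 (SE, edgeR adjusted p 0.293).

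None of 25 dynactin and dynein genes, partners of Dctn3, passed by edgeR, 3 had an unadjusted p under 0.05 and DESeq2 called 0, with a list median of -0.0057. These 3 went both ways: the dynein genes Dynll2 and Dync1li1 had log2 fold changes of -0.23 ± 0.077 and -0.22 ± 0.075 (SE), and Dctn6, another small dynactin subunit, had 0.31 ± 0.11. Among 11 RNase P and MRP genes 0 passed, 1 had an unadjusted p under 0.05 (Pop5, 0.33 ± 0.13) and DESeq2 called 0. Among 18 genes of the inversin compartment and related ciliary proteins 0 passed by edgeR and 1 had an unadjusted p under 0.05, Rpgrip1l, at 0.68 ± 0.17 (edgeR adjusted p 0.0948). Among 12 genes around TMEFF and nodal signalling 0 passed by edgeR and 6 reached an unadjusted p under 0.05, which 17.1% of the tested genes did. The summed level of the list was 763.4 to 848.9 CPM in wildtype and 687.0 to 748.2 CPM in GalTKO libraries. Fst, the follistatin gene, carried most of this drop, with a mean of 248.2 CPM in wildtype and 190.8 CPM in GalTKO libraries. Its log2 fold change was -0.38 ± 0.11 (SE, edgeR adjusted p 0.126) without overlap of its groups. Of the 6 genes, Fst and Acvr2a were lower, and Tmeff2, Acvr1c, Tdgf1 and Fstl3 were higher. The receptor gene Acvr2a stood at -0.24 ± 0.10, Acvr1c at 0.99 ± 0.38 and Tdgf1, the CRIPTO gene, at 1.42 ± 0.55, all with overlapping groups. Fstl3, a follistatin relative, stood at 0.47 ± 0.21, also with overlapping groups. Tmeff2, the relative of Tmeff1 on chromosome 1, stood at 4.16, 3.85 and 2.47 CPM in wildtype and at 5.96, 6.99 and 5.52 CPM in GalTKO replicates 1 to 3. Its groups did not overlap, and the log2 fold change was 0.82 ± 0.24 (edgeR adjusted p 0.129, DESeq2 adjusted p 0.0416).

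The genes most like each member over the 6 libraries, by Pearson r of log2 CPM among 13100 named genes outside the 20 Mb window, are given as a description. They were Pcdhb5 and Dock2 for Il11ra1 (r = 0.996 each), Mtrex and Prim2 for Invs (0.998 and 0.997) and Serpini1 and Ddx59 for Tmeff1 (0.995 and 0.992). For the members with overlapping groups they were Tmem199 and Plbd1 for Dctn3 (0.979 and 0.975), Mpp5 and Smug1 for Rpp25l (0.983 and 0.975) and Slain2 and Hnrnpl for Cntfr (0.988 and 0.965). With 6 libraries in 2 genotypes, r largely follows the genotype difference for the first 3 members.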

How the data were processed

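Total RNA of mouse ovaries was sequenced after ribosomal RNA removal with a stranded kit, per the labels' protocols. The deposited file holds raw read counts, whole numbers for each Ensembl gene. The submitters' processing notes list the build GRCm38 and, without their roles, featureCounts 1.6.3, STAR 2.7.6a, DESeq2 1.30.1 and cutadapt 1.16. Strand setting, annotation release and treatment of multi-mapping reads: not given in the sources used here. Names, positions and exon lengths came from GENCODE M21 (55227 of 55487 identifiers matched), promoters from RefSeq GRCm38.p6 (all 6 members matched).

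Counts were tested with edgeR 4.0.16 in R 4.3.3: filterByExpr (minimum count 10, total 15), TMM scaling, robust quasi-likelihood fit with genotype as the only term on all 6 libraries, Benjamini-Hochberg adjustment over 16957 genes, threshold 0.05, two-sided. The SE is the log2 fold change over the square root of F. Library pairs all differed by more than sampling noise (chi-square per degree of freedom at least 12). The fit was tested on simulated data. Alternatives were other scalings, DESeq2 1.42.0, limma 3.58.1 voom, other filters, a replicate block and each library left out. Genes were named by position within 1 Mb, as changed genes within 20 Mb, by symbol stem, from 13 lists (up to 4 genes each with the smallest p) and by likeness. Members and lists were chosen with earlier results of these data known. Il6st, Lifr, Il11, Acvr2a, Fstl3, Foxj1, Zp3, Lhcgr, Adipoq, Lep, Sntn, Dnaic1 and the 2 pseudogenes fall outside that rule and were added after their values were seen. Some genes that enter the counts are not reported here.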

Additional observations from a re-analysis of the deposited data

How the results depend on the processing

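Il11ra1, Invs and Tmeff1 kept their direction under every alternative run. They were partly chosen as changed in these libraries, so this is no independent support. With a library left out, 0 to 3 of the 6 members passed: 0 without wildtype replicate 1 or 3, 1 without wildtype replicate 2 or GalTKO replicate 1 or 3, and 3 without GalTKO replicate 2. The number of changed genes, 433 with all libraries, was 1026 by DESeq2, 877 with no filter on low counts, 761 at an adjusted p under 0.1 and from 165 to 742 with a library left out. Within 20 Mb of Galt the 7 changed genes became 13 by DESeq2, 13 with no filter, 11 at an adjusted p under 0.1 and 2 to 11 with a library left out, and 1 lay within 5 Mb and 1 within 1 Mb.

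With the replicate number as a block 1 member (Tmeff1) passed in place of 3. Deviations of same-numbered libraries correlated weakly (0.0926, -0.0404 and 0.078 for replicates 1, 2 and 3). Differently numbered pairs ran from -0.118 to 0.029, so replicates 1 and 3 were above all of these and replicate 2 was not. The numbers were not taken to pair samples, since not every library correlated best with its own number. These correlations do not settle whether samples were paired.

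Genes near 0 changed sign without passing in any fit, and the cause was not tested. By limma voom Dctn3 stood at 0.0018 and Enho at -0.062. With a library left out, the log2 fold change ran from -0.13 to 0.051 for Dctn3, from -0.26 to 0.07 for B4galt1, from -0.045 to 0.086 for Bag1, from -0.17 to 0.019 for Nol6, from -0.013 to 0.11 for Ubap2, from -0.22 to 0.28 for Enho and from -0.3 to 0.22 for Ccl27a. Cntfr has the lowest counts of the 6 members, 102 to 157 a library, and the widest SE.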
